A study of Mus musculus with 12 samples.

Results

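The regions described here carried H3K4me2 away from promoters in the liver of both control and LSD1-LKO mice and held no LSD1 peak. H3K4me2 is dimethylation of lysine 4 of histone H3, and LSD1 (Kdm1a) is an enzyme that removes 1 or 2 methyl groups from this lysine. A region was taken from the H3K4me2 list of control liver when its center lay more than 1 kb from every transcription start site (TSS) of a protein-coding gene, when it overlapped an entry of the H3K4me2 list of LSD1-LKO liver by at least 1 bp, and when it overlapped no entry of the LSD1 list. The regions were therefore chosen by the MACS2 peak calls of the 6 ChIP libraries. By this rule 13138 of the 43891 control entries were chosen, which is 29.9% of all control entries and 46.8% of the 28043 distal ones. The rule used the peak calls themselves, so presence in both H3K4me2 lists and absence of LSD1 are how the regions were found and not a result.

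All libraries came from the liver of C57BL/6 mice. LSD1 was precipitated from wild-type liver. H3K4me2 was precipitated from the livers of GFP control and LSD1-LKO mice. Per the study's methods both kinds of mice carried floxed Lsd1 (LSD1 fl/fl), with AAV8-TBG-Cre injected to make the LSD1-LKO mice and AAV8-TBG-GFP injected in the controls. The deletion was made in adult mice, the TBG promoter is active in hepatocytes, and the other cells of the liver keep the gene. The age of the mice is not in the sample labels, and the study's methods describe LSD1 fl/fl mice that were injected at several weeks of age and later given a high-fat diet. Neither the labels nor the ChIP-seq methods say whether the livers used for ChIP-seq came from mice fed in this way. The wild-type livers behind the LSD1 list were not those of the GFP control group. Each list holds the peaks shared by 2 ChIP libraries, so there were 6 ChIP libraries and 6 control libraries among the 12 samples. The lists had 43891 entries for control H3K4me2, 50675 for LSD1-LKO H3K4me2 and 14584 for LSD1. They hold no reads, so the depth of the libraries is unknown, and a difference in the number or width of entries between lists cannot be told apart from a difference in depth or antibody efficiency.

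H3K4me2 marks promoters and also enhancers, which are stretches of DNA that bind transcription factors and raise the transcription of genes that may lie far away. Histone methyltransferases of the MLL family add the mark and demethylases such as LSD1 remove it. In hepatocytes many enhancers bind HNF4A, FOXA, HNF1, C/EBP and ONECUT factors, which together maintain the expression of plasma proteins and metabolic enzymes. Clusters of such regions are common around genes that a cell type transcribes strongly. Distal H3K4me2 alone does not show that a region is an enhancer.

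The sequences of 5 regions are shown because they lie nearest to genes of liver transcription factors or of a secreted plasma protein and hold letters bound by liver factors close to their centers. They are 300-bp windows at the centers, from RefSeq GRCm38.p6 (mm10), plus strand. Capitals mark the letters found, on either strand, of the FOXA motif (TGTTTAC), the C/EBP motif (TTGCNNAA) or the DR1 motif of nuclear receptors (GTCAAAGGT).
Apoh, chr11:108252197-108252496: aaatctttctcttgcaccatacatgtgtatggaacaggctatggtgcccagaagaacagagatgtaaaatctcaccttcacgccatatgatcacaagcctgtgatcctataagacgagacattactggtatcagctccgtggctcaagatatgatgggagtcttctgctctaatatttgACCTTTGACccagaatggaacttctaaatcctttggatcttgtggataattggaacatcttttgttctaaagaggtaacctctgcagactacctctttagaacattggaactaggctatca
Prox1, chr1:190174133-190174432: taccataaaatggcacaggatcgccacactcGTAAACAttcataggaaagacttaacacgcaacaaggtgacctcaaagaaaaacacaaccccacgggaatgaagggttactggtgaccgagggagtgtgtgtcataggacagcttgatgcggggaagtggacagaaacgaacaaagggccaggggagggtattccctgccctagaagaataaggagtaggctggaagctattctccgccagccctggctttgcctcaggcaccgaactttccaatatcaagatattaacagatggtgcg
Onecut1, chr9:74848955-74849254: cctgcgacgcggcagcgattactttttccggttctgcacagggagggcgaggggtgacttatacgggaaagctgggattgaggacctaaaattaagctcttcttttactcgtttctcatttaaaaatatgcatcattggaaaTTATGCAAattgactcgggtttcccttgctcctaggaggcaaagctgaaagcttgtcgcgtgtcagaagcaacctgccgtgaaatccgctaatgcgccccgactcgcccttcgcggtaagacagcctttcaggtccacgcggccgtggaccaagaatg
Foxa2, chr2:148040305-148040604: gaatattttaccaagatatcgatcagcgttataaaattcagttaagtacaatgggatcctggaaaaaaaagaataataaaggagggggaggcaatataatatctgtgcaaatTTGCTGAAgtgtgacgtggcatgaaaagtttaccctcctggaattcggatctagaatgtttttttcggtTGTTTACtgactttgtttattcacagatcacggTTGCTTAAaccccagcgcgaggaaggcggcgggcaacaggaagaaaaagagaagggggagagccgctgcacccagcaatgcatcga
Nr5a2, chr1:136946057-136946356: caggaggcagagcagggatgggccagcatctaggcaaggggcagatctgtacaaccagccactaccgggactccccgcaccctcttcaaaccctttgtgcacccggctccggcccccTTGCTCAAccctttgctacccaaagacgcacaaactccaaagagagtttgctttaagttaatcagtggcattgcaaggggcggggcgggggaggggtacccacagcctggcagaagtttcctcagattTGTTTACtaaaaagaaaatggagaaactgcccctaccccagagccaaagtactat

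There were 163 regions nearest to genes of these groups, those of chromosome 18 not considered. Of these, 30 held any of the letters of HNF4A, DR1, HNF1, C/EBP or FOXA in the central 300 bp. FOXA letters were in 15, C/EBP letters in 15, DR1 and HNF1 letters in 1 each, and HNF4A letters in none. No 300-bp share over all 13138 regions is given, so these counts have no background. In wider 500-bp windows 68.6% of all regions held none of these letters. Of the 163, 2 held letters of more than 1 of these motifs, and both are shown. The Foxa2 region held 3 matches, 1 of FOXA and 2 of C/EBP, and lay 5493 bp downstream of the nearest Foxa2 TSS in intergenic sequence. Foxa2 encodes a FOXA factor. The Nr5a2 region, in an intron 2966 bp downstream of a TSS of this nuclear receptor gene, held 1 match of each. The Foxa2 region had fold enrichments of 5.97 and 5.81 in the control libraries and of 3.69 and 5.66 in the LSD1-LKO libraries. Its intervals in the first-listed libraries measured 1383 bp in control, against 611 bp in LSD1-LKO. The Onecut1 region, 12816 bp upstream of the TSS of the gene for HNF6, had fold enrichments of 5.59 and 7.20 in control, against 5.34 and 8.68 in LSD1-LKO. The Prox1 region, 3569 bp upstream of the TSS of this homeobox gene, had 2.38 and 8.48 in control, against 2.62 and 6.80 in LSD1-LKO. The 2 libraries of a group therefore differed more from each other at Prox1 than control and LSD1-LKO did within the first-listed or the second-listed libraries. The Apoh region lay 91007 bp upstream of the TSS of Apoh, which encodes a plasma apolipoprotein. Its center was in an intron of a protein-coding gene, and it is named after Apoh by the nearest TSS only. It was the lowest ranked of the 5, with fold enrichments of 2.73 and 3.70 in control, against 3.11 and 3.40 in LSD1-LKO.

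How often distal control regions also had an entry in LSD1-LKO differed with LSD1 and with position. Of the 24545 distal control entries without LSD1, 53.5% (95% Wilson confidence interval 52.9% to 54.1%) overlapped an LSD1-LKO entry. The share was 76.1% of the 3498 distal entries with LSD1. Among promoter entries it was 85.7% of 11021 without LSD1 and 95.9% of 4827 with LSD1. Wide or high entries overlap another list more easily. Among distal regions of both lists, those with LSD1 had a median control width of 932 bp and rank of 57.4, against 626 bp and 45.4 without LSD1 (first-listed library for width). The part of width and rank in these shares was not tested. The intervals cover counting error only, and regions of 1 list share their libraries and are not replicates. No test is given in these descriptions for that reason and because the lists were used to choose the regions. The 3 classes set beside the distal regions below are the 2663 distal regions of both lists with an LSD1 peak, the 11407 distal regions of the control list only without LSD1, and the 9440 promoter regions of both lists without LSD1.

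The distal regions lay a median of 10809 bp from the nearest protein-coding TSS (quartiles 3256 and 32589 bp). The median was 11210 bp for distal regions with LSD1 and 14605 bp for those of the control list only. Regions from 1 to 2 kb of a TSS made up 15.2%, those from 2 to 5 kb 18.3%, those from 5 to 10 kb 14.9% and those from 10 to 50 kb 34.8%. A further 9.44% lay from 50 to 100 kb away and 7.46% (980 regions) farther than 100 kb. Of the regions 36.4% lay upstream of the nearest TSS and the others downstream. The share from 1 to 2 kb was 19.1% with LSD1 and 7.64% in the control list only. Widths in all 4 H3K4me2 libraries and ranks in both lists were lower in the farthest than in the nearest bin. From the nearest to the farthest bin the median width went from 785.5 to 562 bp and from 2574.5 to 1043 bp in the 2 control libraries, and from 1085.5 to 582 bp and from 2727 to 1188 bp in the 2 LSD1-LKO libraries. The median percentile rank by p-value within a list, with 100 as the highest, went from 68.2 to 36.5 in control and from 73.5 to 37.9 in LSD1-LKO. Over the regions, Spearman's rho of distance with control rank was -0.309 (n = 13138 regions of the same libraries). Of the 5 widest control regions named below, 4 spanned a TSS although their centers lay more than 1 kb from it.

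**Figure D1:**
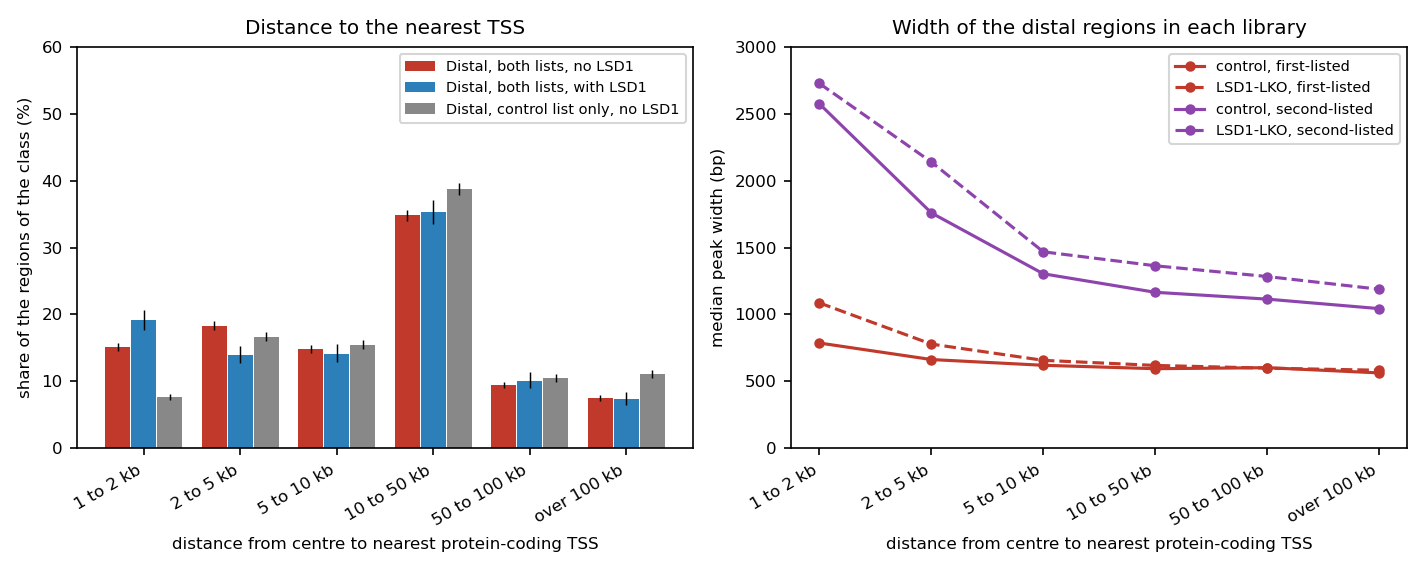
Left, share of regions (%) in bins of the distance from center to the nearest protein-coding TSS, for the 13138 distal regions of both lists without LSD1, the distal regions with LSD1 and those of the control list only, with 95% Wilson intervals as bars. Right, median peak width (bp) of the 13138 regions in the same bins for the 4 libraries. The widths are greatest from 1 to 2 kb, at 785.5 to 2727 bp, and lowest or nearly so beyond 100 kb, at 562 to 1188 bp.

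The limit of 1 kb cut through a continuous range. The 3 regions just beyond it were 1001 bp from a TSS of Myo10, Retsat and Orc2, and the 3 entries just within it were 1000 bp from a TSS of Cep350 and Nfia and 999 bp from one of Bcl2l1. The region at Retsat, which encodes a retinol saturase, was 2199 bp wide in the first-listed and 5137 bp in the second-listed control library. At the other end, the farthest regions were 1763094 bp from the TSS of Flrt2 and 1445897 and 1445152 bp from that of Tenm2. All 3 were narrow, at 295, 442 and 668 bp, and both Tenm2 regions overlapped the same LSD1-LKO entry of 1174 bp. Naming the nearest gene of such regions says nothing of which gene they act on.

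The centers were in introns of protein-coding genes in 56.7% of the regions (7454), in exons in 7.90% (1038) and between genes in 35.4% (4646). Of all control entries 52.2% were in introns, as were 49.9% of the distal regions with LSD1. Introns held 68.5% of the regions from 1 to 2 kb and 32.2% of those beyond 100 kb. Starts of genes that do not encode protein were within 1 kb of 997 regions (7.59%). Of these 328 had a lincRNA as the nearest such gene, 193 an antisense gene and 61 a microRNA gene. These regions are distal by the rule, which counts only protein-coding TSSs.

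The gap to the nearest LSD1 peak was measured for the regions, none of which overlapped one by the rule. The nearest LSD1 peak was a median of 12699 bp away, compared with 17606 bp for regions of the control list only. The control list only also lay farther from a TSS (median 14605 bp, against 10809 bp), and the part of this in the gap was not tested. An LSD1 peak was within 1 kb of 12.8% of the regions (1676) and within 10 kb of 45.3% (5956). No such shares are given for other control entries, so nearness to LSD1 cannot be called a trait of these regions. The LSD1 peaks were the narrow intervals called in both wild-type libraries, so absence from the list means that no shared peak was called.

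The nearest genes were 5802 of the 21853 protein-coding genes, and 26.6% is therefore the background share of genes with at least 1 region. For 2984 genes it was 1 region, for 2226 genes 2 to 4, for 489 genes 5 to 9 and for 103 genes 10 or more. These 103 genes had 1300 regions (9.89%). The gene with the most was Pik3r1, the regulatory subunit of phosphoinositide 3-kinase that couples it to the insulin receptor substrates, with 24. Mtss1, which encodes an actin and membrane binding protein, Nfib, a transcription factor of the nuclear factor I family, Tns1, a focal adhesion tensin, and Rreb1, a zinc finger factor, had 21 each. Adgrl2, an adhesion receptor, had 20 and Zmiz1, a transcriptional coregulator, 19. Ppara, the fatty acid sensing nuclear receptor that drives fatty acid oxidation in the fasted liver, had 18. Its heterodimer partner Rxra had 17, and so did Acsl1, the long-chain acyl-CoA synthetase that activates fatty acids. The adaptor gene Shb, the RNA binding protein gene Rbm47 and the genes of the transcriptional regulators Rere, Nfia and Nr2f2 had 16 each. All 15 had a promoter entry in both H3K4me2 lists, and 8 had one in the LSD1 list. The farthest region of a gene lay from 16672 bp (Rbm47) to 854847 bp (Adgrl2) from the nearest TSS of that gene. A gene can have several TSSs, so this distance is not the spread of its regions. At Shb it was 21549 bp, whereas the 16 regions spanned 63.3 kb. Long genes and genes in wide intergenic stretches are nearest to more of the genome, and the counts were not divided by that length.

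Genes of liver transcription factors were among the most often marked. At least 1 region lay nearest to 22 of 25 (88.0%, 127 regions), and 15 of 25 had 3 or more, where 7.29% of all protein-coding genes did. Ppara had 18, Rxra 17, Cebpa 13 and Nr5a2 11. Cebpa encodes a C/EBP factor needed for hepatocyte differentiation. Its 13 regions reached from 2264 to 31353 bp from a TSS and were at most 1256 bp wide. Foxa2 had 9, Hnf4a, Gata4 and Onecut1 7, and Nr1h3, Creb3l3 and Atf5 none. The 7 regions of Hnf4a, a nuclear receptor at the center of the hepatocyte program, had fold enrichments of 2.79 to 5.22 in the first-listed control library and of 4.30 to 4.61 in the second. In LSD1-LKO they were 2.06 to 4.06 and 2.51 to 7.16. The ranges of the 2 conditions overlapped in both pairs of libraries. Of the 25 genes, 22 had a promoter entry in control and 23 in LSD1-LKO.

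Secreted plasma proteins were nearest genes in 23 of 30 cases, with 82 regions. Apob, the structural protein of very low density lipoprotein, had 15, Alb and Ttr 8 each and Plg 6. The 8 regions of Alb, which encodes serum albumin, comprised 6 upstream, from 12037 to 46561 bp before the TSS, and 2 in exons at 1927 and 3114 bp after it. The control list had no entry at the Alb promoter, whereas the LSD1-LKO list and the LSD1 list had one. Widths of the Alb regions were 489 to 2308 bp in the first-listed control library and 277 to 1525 bp in LSD1-LKO. The most upstream Alb region had fold enrichments of 6.34 and 4.04 in control, against 4.06 and 3.43 in LSD1-LKO. The region at 12037 bp had 4.48 and 6.84 in control, against 4.06 and 5.003 in LSD1-LKO. Control was above LSD1-LKO in both pairs of libraries at these 2 regions, which were chosen after their values were seen, and library depth was not known.

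Genes of glucose metabolism and insulin signaling had a region in 18 of 20 cases, with Foxo1 and Insr at 11, Irs2 at 10 and G6pc at 8. Insr encodes the insulin receptor, Irs2 an adaptor of it, Foxo1 a transcription factor that insulin keeps out of the nucleus, and G6pc the enzyme that releases free glucose. Gckr and Igfbp1 had none. Of the 8 regions at G6pc, 5 lay 2014 to 14054 bp upstream of the TSS and 3 lay 2003 to 23945 bp downstream. The fold enrichments at G6pc were 1.80 to 5.22 and 2.69 to 7.25 in the control libraries and 2.38 to 5.17 and 2.97 to 6.09 in the LSD1-LKO libraries, so the ranges overlapped. Genes of lipid and cholesterol synthesis had a region in 17 of 20 cases. Gpam, which begins triglyceride synthesis, and Insig1, which retains SREBP in the endoplasmic reticulum, had 10 each. Dgat2 had 9 and Fasn, the fatty acid synthase, had 7. Fatty acid oxidation and ketogenesis had 14 of 20. Acsl1 led with 17, and Bdh1, a ketone body dehydrogenase, had 6 and Acaa2, a thiolase, 5. All 20 of these genes had a promoter entry in both H3K4me2 lists.

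Amino acid catabolism and the urea cycle had 18 of 20, with 9 regions at Hpd and 5 each at Cps1, Got1 and Tat. Hpd acts in tyrosine breakdown, and Cps1 is the first enzyme of the urea cycle. Bile acid and canalicular transport genes had 12 of 14. Abcc2, a canalicular exporter, and Atp8b1, a phospholipid flippase, had 8 each, Slco1b2 4 and Abcg8 3. Hepatokines and the growth hormone axis had 14 of 18, led by Ghr, Selenop and Tsku with 8 each and Angptl4 with 3. The growth hormone receptor Ghr had 12 further distal regions in the control list only. Fgf21 had no such region. Circadian clock genes had 14 of 19. Rora had 10, Per2 7, Tef 5 and Bhlhe40 4, whereas Clock, Per3, Cry2, Dbp and Ciart had none. The 7 Per2 regions lay from 1239 to 21631 bp from its TSS. Cytochrome P450 genes and their reductase stood lower, at 9 of 20 with 20 regions. Cyp7b1 had 5, Cyp8b1 4, the reductase Por 3 and Cyp2e1 2, and Cyp7a1, the rate-limiting enzyme of bile acid synthesis, had none.

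Housekeeping genes of the mitochondrion and ribosome gave lower shares. Of 25 nuclear-encoded respiratory chain genes 10 had a region (40.0%), with 4 at Atp5g3 and 3 at Cox5a. The share was 7 of 20 for mitochondrial ribosomal proteins and 2 of 20 for cytosolic ribosomal proteins. All 20 cytosolic ribosomal genes nonetheless had a promoter entry in both H3K4me2 lists. In control liver 58.8% of protein-coding genes had a promoter entry, and among genes with one 37.2% had a region. The shares of the metabolic and transcription factor lists, from 70.0% to 90.0% apart from P450 genes, were thus above both background shares. The share of cytosolic ribosomal proteins was below both, but its Wilson interval (2.79% to 30.1%) included the 26.6% of all protein-coding genes. The intervals of mitochondrial ribosomal proteins (35.0%, 18.1% to 56.7%) and respiratory chain genes (40.0%, 23.4% to 59.3%) included both background shares. Neither list could therefore be placed above or below the background. Members of all the gene lists were chosen with earlier results known, and gene length and spacing were not taken into account.

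**Figure D2:**
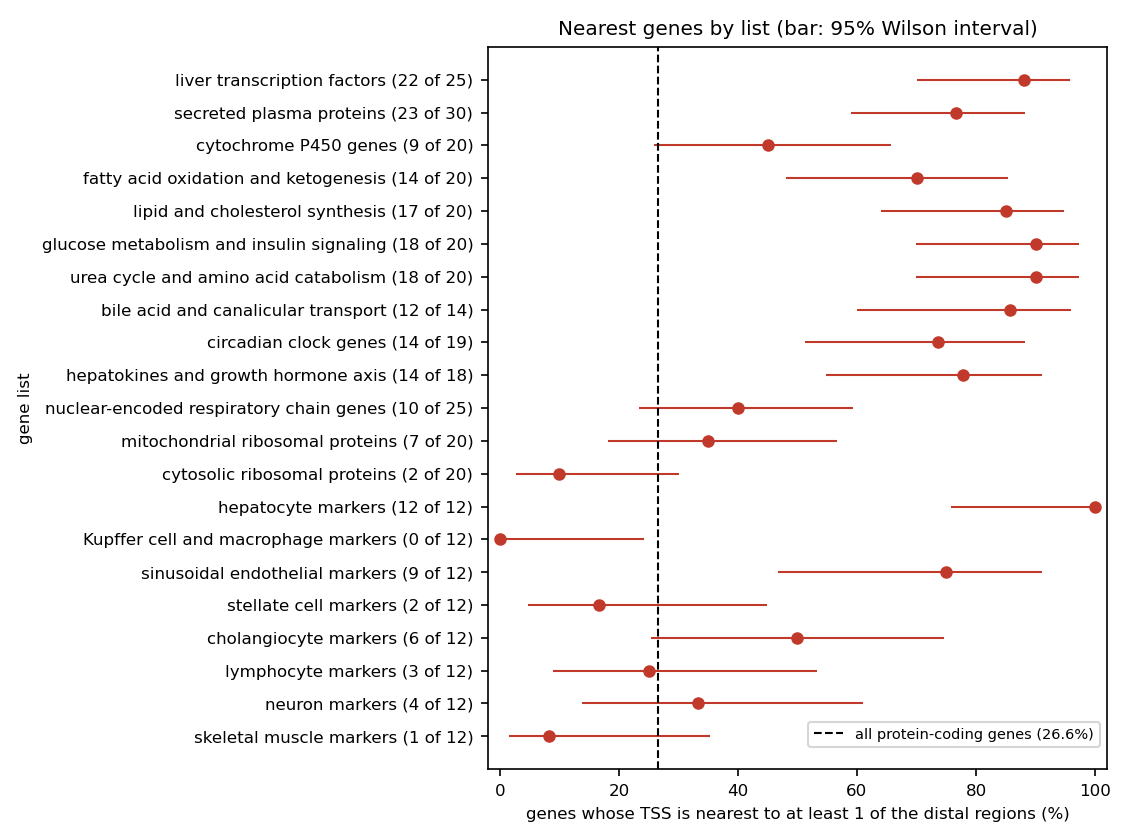
Share of the genes of each list (%) whose TSS is the nearest to at least 1 of the 13138 distal regions, with 95% Wilson intervals as bars. The lists of glucose metabolism and of amino acid catabolism stand at 90.0%, cytosolic ribosomal proteins at 2 of 20 and markers of Kupffer cells and macrophages at 0%.

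Markers of cell types were read against the 26.6% of all protein-coding genes that had a region. All 12 hepatocyte markers had a region (48 in all), and 9 of them had a promoter entry in control and 11 in LSD1-LKO. None of the 12 Kupffer cell and macrophage markers, Adgre1, Csf1r and Clec4f included, had a region or a promoter entry in any of the 3 lists. Of 12 stellate cell markers 2 had a region, at 10211 bp from Acta2 and 166009 bp from Dcn. Lymphocyte markers had a region in 3 of 12 cases, neuron markers in 4 and skeletal muscle markers in 1, which lay from 8.33% to 33.3%, near or below that background. Sinusoidal endothelial markers had a region in 9 of 12 cases, with 11 regions, and by this count stood above it, as the hepatocyte markers did. The 2 lists differed otherwise. None of the endothelial markers had 3 or more regions, whereas 7 of 12 hepatocyte markers did, and 7.29% of all protein-coding genes. A region within 50 kb was found for 7 of 12 endothelial and all 12 hepatocyte markers, and for 24.0% of all protein-coding genes. The endothelial markers had a promoter entry in control in 1 case (Fcgr2b). Among them Stab2, a scavenger receptor, had a region of 307 bp 24566 bp upstream of its TSS, with fold enrichments of 3.34 and 2.28 in control, against 5.17 and 4.30 in LSD1-LKO. LSD1-LKO was above control in both pairs of libraries at this region, and it was chosen after its values were seen. Cholangiocyte markers had a region in 6 of 12 cases, also above the 26.6%, although the Wilson interval (25.4% to 74.6%) included it. Onecut1 had 7 and Sox9 6, and hepatocytes are known to express Onecut1 as well, whereas Krt7 and Krt19 had none. In bulk liver, fewer cells of a type and less of the mark in each cell cannot be told apart. Kdm1a itself had no region. Its promoter was without an entry in the control list and had one in the LSD1-LKO list, which checks nothing about the deletion.

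The regions were narrow in the first-listed libraries and about 2 times as wide in the second-listed ones in both conditions. In control the median width was 626 bp (quartiles 412 and 996) and 1356 bp (838 and 2378). The overlapping LSD1-LKO entry, taken as the one with the largest overlap, was 684 bp (432 and 1127) and 1586 bp (987 and 2672). The median fold enrichment over the control library was 3.12 and 4.38 in control, against 3.32 and 4.61 in LSD1-LKO. The 2 libraries of a group thus differed more in width and fold enrichment than the 2 conditions did within the first-listed or within the second-listed libraries. Spearman's rho of enrichment across the 13138 regions was 0.294 between the 2 control libraries and 0.344 between the 2 LSD1-LKO libraries. For rank, which averages −log10 p over the 2 libraries of a list, rho was 0.549 between the control and LSD1-LKO lists. Being of another measure, it cannot be compared with the rho values between single libraries. Genes and regions are not independent replicates, and the points share their libraries.

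Distal regions with LSD1 were wider, with medians of 932 and 1695 bp in control, against 854 and 1926 bp in LSD1-LKO. Promoter regions without LSD1 had 1023 and 1845 bp, and 1015 and 1945 bp. The distal regions of the control list only had 407 and 780 bp. The median control rank was 45.4 for the distal regions of both lists, 57.4 with LSD1, 76.0 at promoters and 21.2 in the control list only. An entry that is wide or high in 1 list overlaps an entry of another list more easily, so these differences are tied to the choice of the classes. Of the distal regions, 4116 (31.3%) ranked above the median of both lists and 14.1% were in the highest 25% of the control list. A p-value at or below 0.01 was listed in all 4 libraries for 89.3% (11726), and one at or below 1e-05 for 14.2% (1866).

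**Figure D3:**
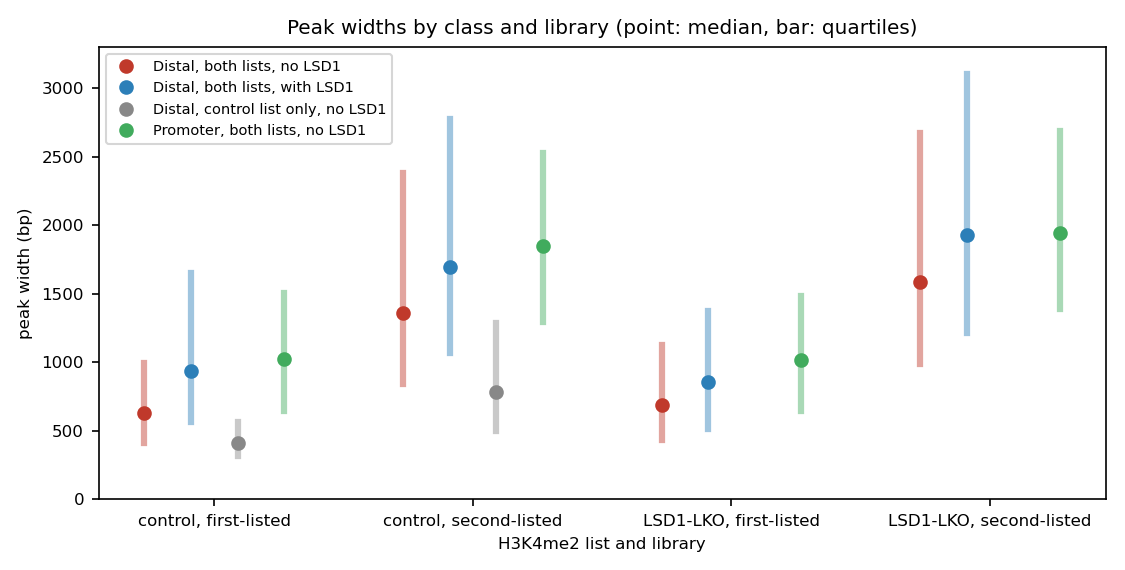
Median peak width (bp, points) with quartiles (bars) of the 4 classes of regions in the first-listed and second-listed libraries of control and LSD1-LKO. The 13138 distal regions without LSD1 have medians of 626 and 1356 bp in control, against 684 and 1586 bp in LSD1-LKO, below those with LSD1 in each library. Regions of the control list only have no LSD1-LKO width.

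Whether the regions were wider in LSD1-LKO depended on how they were counted. Taken region by region, the median ratio of LSD1-LKO to control width was 1.04 in the first-listed libraries, with 52.0% of the regions wider in LSD1-LKO, and 1.11 in the second-listed libraries, with 58.3% wider. It was over 2 times wider in LSD1-LKO in 19.4% and over 2 times wider in control in 14.6% (first-listed libraries). When the same rule was started from the LSD1-LKO list, which gave 14427 regions, the ratio was 0.772. When connected runs of overlapping entries were taken as 1 region each (11933 runs), the entries covered 12.8 Mb in control and 12.1 Mb in LSD1-LKO with a median ratio of 0.957. Among the 8560 cases of 1 control entry and 1 LSD1-LKO entry the medians were 586 and 566 bp and the median ratio 0.962. The direction thus turned with the starting list, and no difference in width between the conditions was established. Of the regions 86.2% overlapped 1 LSD1-LKO entry, 1573 overlapped 2 and 246 overlapped 3 or more, while 2008 shared an LSD1-LKO entry with another region. A median of 68.8% of the control interval was covered by LSD1-LKO entries, and 2524 regions (19.2%) were covered whole.

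Single regions show how breaks and widths differed between the lists. Irs1, an insulin receptor substrate, had 4 regions in 1 intron, of 1099, 1231, 641 and 870 bp in the first-listed control library. All 4 lay within 1 peak of 4633 bp of the second-listed control library and overlapped 1 LSD1-LKO entry of 4044 bp, so that each had a ratio above 3. At H1f0, which encodes a linker histone, a region of 336 bp overlapped an LSD1-LKO entry of 7574 bp and had the largest ratio, 22.5, among regions ranked above the median of both lists. The second-listed libraries had peaks of 9551 bp in control, against 8774 bp in LSD1-LKO there. Rbpms and Rhbdf2 followed with ratios of 17.6 and 15.2. The smallest were 0.112 at Ppp2r3a, where a control region of 3360 bp overlapped an LSD1-LKO entry of 377 bp, 0.113 at Daam1 and 0.154 at Prkd3. The Ppp2r3a and Daam1 regions each overlapped 1 LSD1-LKO entry, which covered 11.2% and 6.43% of the control interval. At Ppp2r3a the second-listed libraries had 2247 and 1673 bp. At the regions with the largest and smallest ratios the second-listed libraries, read alone, gave smaller differences between the conditions. These regions were picked by their first-listed ratios, so smaller differences in the other libraries are tied to that choice.

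The widest regions in control lay next to Onecut2 (6753 bp), Arid5b (6460 bp), Lrp1 (6416 bp), Sdc4 (6310 bp) and Cp (6093 bp). Onecut2 encodes a ONECUT factor, Lrp1 a clearance receptor for lipoprotein remnants, and Cp the plasma ferroxidase ceruloplasmin. All 5 overlapped 3 to 5 LSD1-LKO entries, and the second-listed LSD1-LKO library had peaks there of 9772 bp at Onecut2 and 5872 bp at Cp. The widest LSD1-LKO entries over a region were 8107 bp at Nfib, 7574 bp at H1f0, 7552 bp at Setd1b, 6885 bp at Rxra and 5974 bp at Scp2. At Rxra the region was 4733 bp in the first-listed and 7744 bp in the second-listed control library, and 6885 and 12183 bp in LSD1-LKO, in an intron 2583 bp downstream of a TSS. The fold enrichments at Rxra were 6.18 and 5.06 in control, against 4.97 and 7.07 in LSD1-LKO.

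The highest ranked regions had Sfi1, Scaf8, Gm15319 (2 regions) and H2-Q6 as their nearest genes. The H2-Q6 region lay 1264 bp from the TSS, and the others from 32274 to 66308 bp. At H2-Q6 the −log10 p-value was 2.52 in the first-listed and 42.8 in the second-listed control library. Its control rank thus came mainly from the second. LSD1-LKO entries covered 5.56% of its 288 bp. The Sfi1 region (chr11:3125189-3126095, GRCm38/mm10) was 907 bp wide, 61713 bp from the TSS, with fold enrichments of 5.32 and 7.18 in control, against 4.21 and 6.70 in LSD1-LKO. Its −log10 p-values were 41.7, 74.1, 24.7 and 63.7, in the same order. The rank follows the p-value and not the fold enrichment. The Nfib region had higher fold enrichments of 5.97 and 10.4 in control, with −log10 p-values of 10.4 and 25.6. The Sfi1 region also lay within 1 kb of the TSS of Pisd-ps1. Both Gm15319 regions lay within 1 kb of that of 2610005L07Rik or 6820431F20Rik. These genes do not encode protein by the annotation. Read placement at these regions was not tested. H2-Q6 belongs to a family of near-identical major histocompatibility genes, and reads of such copies can be placed on another copy, so the position of this call is uncertain.

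Many of the regions lay close to others. When regions at most 12500 bp apart were joined, 1158 clusters of at least 3 formed, which held 4808 regions (36.6%). The share was 8.30% with LSD1, 23.1% in the control list only and 13.1% at promoters, but these classes are of unequal size and a larger class gives more neighbors. The clusters had 3 regions in 581 cases, 4 or 5 in 410, 6 to 9 in 144 and 10 or more in 23, and their median span was 11.5 kb. The regions were also pieces of wider peaks. They lay in 11458 distinct peaks of the second-listed control library, 3088 of them shared such a peak with another region, and at most 6 lay in 1 peak. Of the clusters, 771 held 3 or more second-listed peaks, and 70 lay within 1. Regions within clusters had median widths of 640.5 and 1796.5 bp in the control libraries, compared with 617 and 1192 bp outside. A wide second-listed peak that holds several regions is counted once for each and brings them close together. The contrast in second-listed width is therefore tied to how clusters form. The median distance from a TSS was 8478.5 bp within clusters, compared with 13188.5 bp outside. In 711 clusters (61.4%) no LSD1 entry lay anywhere in the span.

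Shb, which encodes an adaptor protein of tyrosine kinase receptors, and Abhd17c had the clusters with the most regions, 16 each. The Shb cluster spanned 63.3 kb, all of it in introns by region center, with 11 second-listed control peaks, 32 LSD1-LKO entries and 4 LSD1 entries between the regions. Abhd17c had 42.2 kb, 10 second-listed peaks, 22 LSD1-LKO entries and 2 LSD1 entries. Clusters of 13 lay at Adk, the adenosine kinase gene (39.8 kb), Mtss1 (45.1 kb), Zmiz1 (57.6 kb), Atxn2 (54.7 kb) and Cebpa (34.6 kb). At Cebpa no region was in an intron, and the regions lay in 8 second-listed control peaks on both sides of the gene. The 12 regions of the Acsl1 cluster were all in introns, from 1730 to 9294 bp from the nearest TSS, within 26.8 kb. The cluster upstream of Ppara had 12 regions in 66.7 kb, 7 nearest to Ppara and 5 nearest to Wnt7b, none in an intron, with a median rank of 76.1 in control and 58.8 in LSD1-LKO. At Zmiz1 the median rank was 58.2 in control and 30.3 in LSD1-LKO, and at Cebpa 46.7 in control and 62.3 in LSD1-LKO. Ranks of neighbors in a cluster share second-listed peaks and libraries, and these differences have no replicate check. Ttc39c had 12 regions in 43.3 kb.

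**Figure D4:**
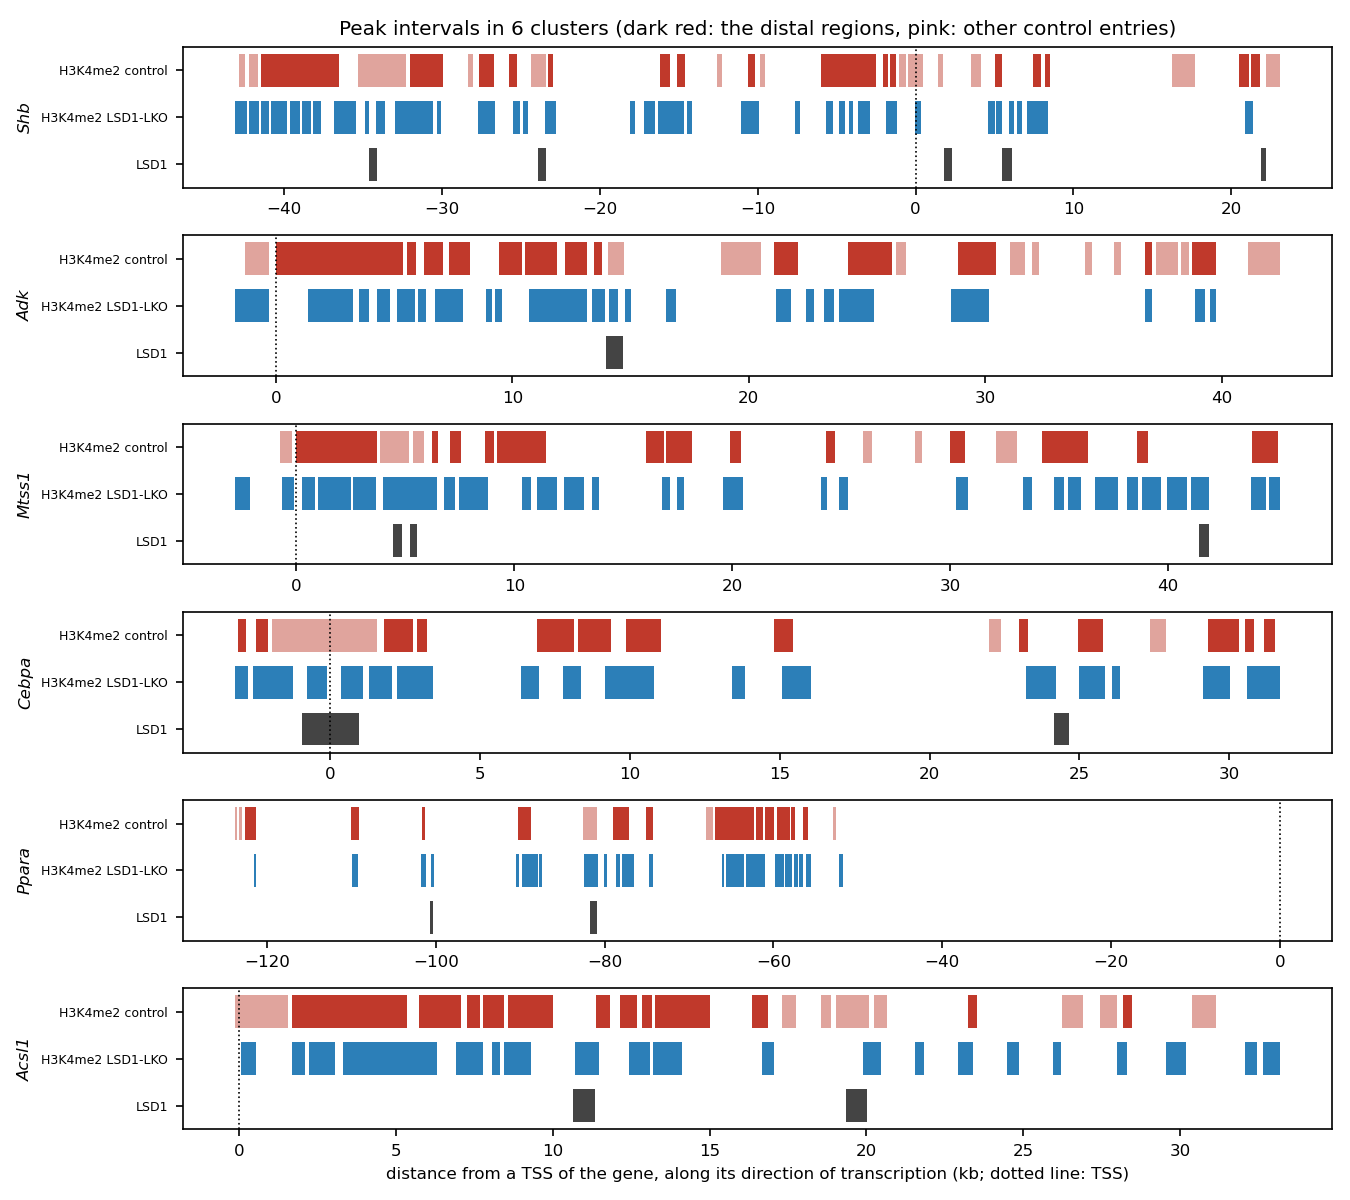
Peak intervals at 6 clusters (Shb, Adk, Mtss1, Cebpa, Ppara and Acsl1) by distance (kb) from a TSS along the direction of transcription, one row per list. Dark red bars are the distal regions, pink bars other control H3K4me2 entries, blue bars LSD1-LKO H3K4me2 entries and dark gray bars LSD1 entries. Control and LSD1-LKO intervals lie over the same stretches with different breaks, and each map holds LSD1 bars between the regions.

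By chromosome, from 26.0% to 32.2% of the control entries of each autosome were among the distal regions, and 12.997% (85 of 654) of those of chromosome X. Fewer of the entries on X were distal (37.2%, compared with 64.3% on autosomes). Of these distal entries 38.3% on X and 56.5% on autosomes overlapped an LSD1-LKO entry, and of promoter entries 62.3% and 89.5%. LSD1 lay on 4.12% of the distal entries of X and 12.55% of those of autosomes. The median fold enrichment of distal control entries was 2.98 and 3.96 on both X and autosomes in the first-listed and second-listed libraries. Their median control rank was 30.7 on X and 35.2 on autosomes, and their median first-listed width 472 and 520 bp. The sex of the mice is not in the sample labels. The study's methods name male mice for most experiments, without a statement on the ChIP-seq livers. The part of sex, rank and width in these shares was not tested.

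The sequences of the regions were read over 500 bp at each center. The median GC content was 47.2%, with an observed over expected CpG ratio of 0.240, where 1 would mean no loss of CpG. A GC content above 50% together with a CpG ratio above 0.6, as in CpG islands, was found in 842 regions (6.41%). The share was 10.6% with LSD1, 2.34% in the control list only and 46.7% at promoters. In flanks 3 kb to either side without H3K4me2 it was 0.292%. It was 13.5% in the highest and 2.86% in the lowest 25% of control rank, and 3.10% within clusters and 8.32% outside. Repeats masked in the genome made up a mean of 17.7% of the windows and 28.4% of the flanks.

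The letters of most motifs searched, those of liver factors and those of factors found in most tissues, were more frequent at the centers than in the 18465 flanking windows. Letters were searched on both strands, and a match describes the letters and not a bound factor. C/EBP letters (TTGCNNAA) were in 22.0% of the regions, 18.96% of the flanks and 19.8% of all control entries. FOXA letters (TGTTTAC) were in 8.54%, 6.90% and 7.46%, in the same order. For HNF4A (CAAAGTCCA) the share was 1.33% (175 regions, 95% Wilson interval 1.15% to 1.54%), 0.612% of the flanks and 1.16% of all control entries. For DR1 (GTCAAAGGT), which shares CAAAG with the HNF4A letters, it was 0.715%, 0.455% and 0.531% and for HNF1 (GTTAATNAT) 2.03%, 1.24% and 1.66%. HNF6 letters (ATCGAT) were in 2.06% of the regions, 1.42% of the flanks and 1.96% of all control entries. The Wilson intervals of regions and flanks did not overlap for the letters of HNF4A, DR1, FOXA, C/EBP, HNF1 and HNF6, and likewise not for those of PU.1, the clock E-box, CTCF, GABP and the GC box. The ratio of the share in regions to that in flanks was 2.48 for the GC box, 2.18 for HNF4A, 1.90 for GABP, 1.74 for CTCF, 1.64 for HNF1, 1.24 for FOXA and 1.16 for C/EBP, so a higher share at the centers was not limited to liver factors. Letters of NR5A2 and ERR (TCAAGGTCA) were in 1.53% and 1.45% (1.30% of all control entries). AP-1 letters (TGANTCA) were in 14.8% of the regions, 14.2% of the flanks and 12.55% of all control entries (5507 of 43891 windows). D-box letters of PAR bZIP factors (TTATGTAA) were in 2.44%, 1.99% and 2.17%. For these 3 motifs the intervals of regions and flanks overlapped.

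Shares of these letters in the other classes were as follows. HNF4A letters were in 1.73% with LSD1, FOXA letters in 8.64%, C/EBP letters in 23.1% and HNF1 letters in 2.07%, each with a Wilson interval that overlapped that of the regions without LSD1. In the control list only they were in 1.58%, 9.28%, 22.5% and 2.22%. Promoter regions had fewer of them, at 0.572%, 4.88%, 15.2% and 0.784%. Letters typical of promoters were more frequent at promoters than in the distal regions. GC box letters of SP factors (GGGCGG) were in 15.9% of the distal regions, 20.4% with LSD1, 9.19% in the control list only, 49.98% at promoters and 6.42% of flanks, with 27.1% in all control entries. Within the distal regions the share went from 11.4% in the lowest 25% to 23.0% in the highest 25% by control rank. GABP and ETS letters (CCGGAAGT) were in 0.883% of the regions, 0.466% of the flanks, 3.34% of promoters and 1.70% of all control entries. CTCF letters (CNAGGGGGC) were in 1.78%, 1.02%, 3.59% and 2.39%, and clock E-box letters (CACGTG) in 7.71%, 6.29%, 10.4% and 8.47%, in the same order. PU.1 letters (GAGGAAGT), which share their last 6 bases with those of GABP, were in 3.65% of the regions, 2.99% of the flanks and 3.34% of all control entries. Base composition differed between the classes, as given above, and its part in these shares was not tested.

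**Figure D5:**
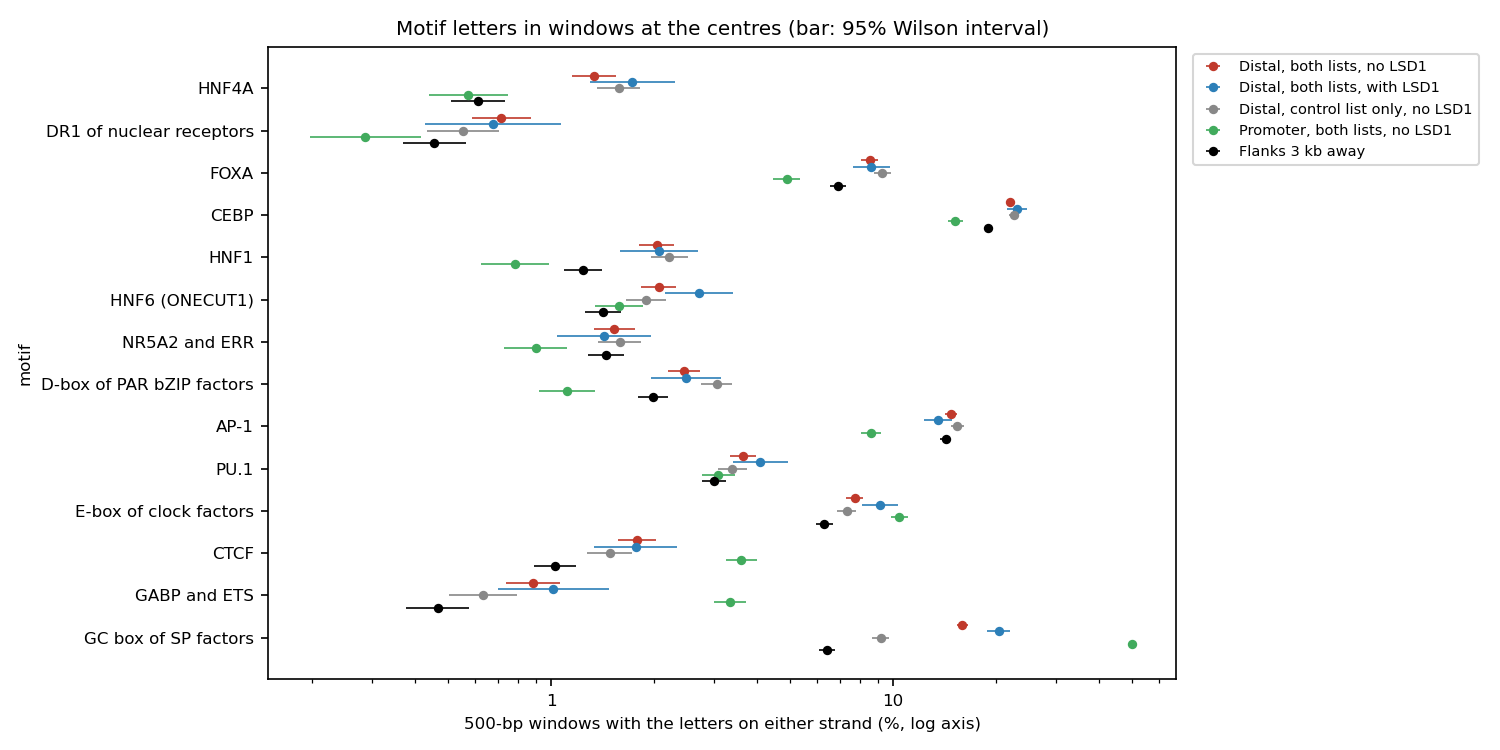
Share of 500-bp windows (%, log axis) that hold the letters of each of 14 motifs on either strand, for the 13138 distal regions of both lists without LSD1, the other 3 classes and the flanks 3 kb away, with 95% Wilson intervals as bars. HNF4A letters stand at 1.33% in the regions and 0.612% in flanks, and GC box letters at 15.9% in the regions, 6.42% in flanks and 49.98% at promoters.

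Most regions held none of the letters of HNF4A, DR1, FOXA, C/EBP or HNF1 in the 500 bp. There were 9015 (68.6%) with none, 3709 with 1 kind, 401 with 2 and 13 with 3. Among the 127 regions nearest to genes of liver transcription factors 17 (13.4%) held FOXA letters, 18 (14.2%) C/EBP letters and none those of HNF4A or HNF1. All regions had 8.54% for FOXA, 22.0% for C/EBP, 1.33% for HNF4A and 2.03% for HNF1, and flanks had 18.96% for C/EBP. With only 127 regions and no interval given, no share at these genes was established as above or below these. At 1.33% and 2.03%, finding none in 127 regions says little. Of the 82 at secreted plasma proteins 7 (8.54%) held FOXA, 14 (17.1%) C/EBP and 2 (2.44%) HNF4A letters. The regions shown at Foxa2 and Nr5a2, with both FOXA and C/EBP letters, therefore belong to a minority.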

How the data were processed

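The data were ChIP-seq peak lists of mouse liver, for LSD1 in wild-type and for H3K4me2 in control and LSD1-LKO mice. The authors aligned the reads to mm10 with Bowtie2, called narrow peaks in each library with MACS2 against input or IgG libraries at p = 0.01, and joined the 2 libraries of a group with bedtools 2.25.0 intersect. Some entries had a p-value above 0.01 in a library. The deposited −log10 p-values and fold enrichment ratios are the MACS2 values of each peak over its control library. Of the per-library columns, 12 (scores and summit offsets) were not used.

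Each region took its position from the first-listed library of an entry. No replicate numbers name the libraries, and the peak names of the first-listed H3K4me2 libraries of both groups mention sorting and Picard, whereas those of the second-listed libraries do not. Starts were those of protein-coding transcripts in GENCODE M21. A rank is a percentile within a list, after averaging −log10 p over its libraries. Clusters joined regions at most 12.5 kb apart and needed 3 regions. Motif letters were searched in 500 bp at each center, and in flanks 3 kb away that overlapped no H3K4me2 entry and lay over 1 kb from a TSS. Wilson 95% intervals cover counting error only. No test was run, since regions of a list are not replicates.

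The genes named are the 15 nearest to the most regions, at most 4 per gene list with the most regions, and the regions and clusters highest in rank, width, width ratio, distance or size. Others were named after their values were seen, among them the genes with none, the regions described one by one at Alb, Hnf4a, G6pc, Irs1, Per2 and Stab2, and further members of a list. One plasma protein gene, Tf, was found as Trf. Regions of chromosome 18 were not considered for the sequences shown. Some genes that the naming rule selects are not reported here. The regions and lists were chosen with earlier results of these data known. Alternatives included other distances from the TSS, MACS2 thresholds, overlaps, cluster distances, windows, single libraries and the list the rule started from. TSSs of all transcripts, merged regions and connected runs were added after seeing the data. The overlap and motif steps were tested on simulated data. Python 3.11.15, numpy 2.4.6, pandas 2.3.3, pysam 0.24.0, samtools 1.23.1 and matplotlib 3.10.9 were used.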

Additional observations from a re-analysis of the deposited data

How the results depend on the processing

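The number of regions, of nearest genes and the share with HNF4A letters held within the set limits under most alternatives, whereas the median distance, the shares in introns and clusters and the width ratio moved more. With p at most 1e-05 in each library of all lists, 2663 regions met the rule in place of 13138, nearest to 2041 genes, at a median distance of 3971 bp, with 52.8% in introns, 9.58% in clusters and a width ratio of 0.932, on the other side of 1. With p at most 0.01, 34.6% lay in clusters. With a limit of 2 kb the distance was 14706.5 bp, with 54.6% in introns and 33.6% in clusters. With the nearest edge over 1 kb from a TSS these were 12835.5 bp, 55.6% and 34.1%. With starts of all gene types, 59.1% were in introns and 34.7% in clusters, and with starts of all transcripts the distance was 8852 bp. With an overlap of 50% of the narrower peak, 55.6% were in introns and 32.9% in clusters, and with no LSD1 peak within 1 kb 32.4% were in clusters. Clusters held 23.9% of the regions when joined over 5 kb and 48.995% over 25 kb. Started from the LSD1-LKO list, the rule gave 58.0% in introns, 41.04% in clusters and a width ratio of 0.772. Regions merged by their second-listed peak gave 55.8%, 25.6% and 0.906, and connected runs gave a ratio of 0.957. HNF4A letters were in 0.480% of 200-bp windows. With the second-listed library alone in all lists, the distance was 13339 bp, 55.5% were in introns, 27.2% in clusters, the width ratio was 1.25 and 1.72% held HNF4A letters. The direction of the width ratio therefore depended on the starting list, on merging and on the threshold. The cause of the other shifts was not tested. No paired analysis was possible because the lists combine the 2 libraries of a group, carry no replicate numbers, and no result comes from a test.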
